A study of Mus musculus with 12 samples.

Results

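A set of 10 genes that mark the epithelium of the choroid plexus was followed through 12 bulk RNA samples of mouse cerebellum and medulloblastoma. The 10 are *Ttr*, *Enpp2*, *Kl*, *Folr1*, *Aqp1*, *Clic6*, *Kcnj13*, *Slc4a5*, *Mfrp* and *Calml4*, and all 10 were found by gene symbol among the 24091 genes of the expression table. They were chosen by their place among known choroid plexus genes and with earlier results of these same samples in view, the spread of *Ttr* among the control cerebella included. Their levels are therefore given as a description, with no test.

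The samples were 3 tumors and 3 pieces of adjacent cerebellum from *Brca2-mut;Trp53-mut* mice (GB344, GB359 and GB370, each mouse giving one of both), P90 cerebella of 3 *Brca2-mut;Trp53-WT* mice (GB361, GB508 and GB512) and P90 cerebella of 3 *Brca2-WT;Trp53-mut* mice (GB517, GB519 and GB520). *Brca2-mut* denotes deletion of floxed *Brca2* exons 3 and 4 by Cre under the human *GFAP* promoter, active in the developing central nervous system. *Trp53-mut* denotes a knockout in every cell, so the *Brca2-WT;Trp53-mut* controls share *Trp53* loss with the tumor-bearing mice, and the *Brca2-mut;Trp53-WT* controls share the *Brca2* deletion. Tumors and adjacent tissue were taken when mice became sick. No label or method says whether the choroid plexus was kept or removed at dissection.

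The choroid plexus is a fold of vascular tissue covered by a single layer of epithelium, and in the hindbrain it hangs from the roof of the fourth ventricle, directly against the cerebellum. Its epithelium secretes cerebrospinal fluid by moving ions and water from blood to ventricle, and it makes carrier proteins and hormones for the fluid. It is not part of the cerebellar cortex. In bulk RNA, fewer cells of a type and less RNA per cell cannot be told apart.

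Values are TPM, a level scaled for transcript length and for the library's total, so levels of different genes can be set side by side. TPM keeps no read depth, and the depth behind each value is unknown. The deposited columns summed to between 999793 and 999876 TPM, and 15088 to 15803 genes reached 1 TPM per library. Gene totals did not check the exon deletions of the targeted genes. *Trp53* stood at 47.1 to 49.4 TPM in the *Brca2-WT;Trp53-mut* cerebella and at 33.1 to 37.2 TPM in the *Brca2-mut;Trp53-WT* cerebella, and *Brca2* at 3.24 to 4.40 and 3.396 to 3.79 TPM. A transcript that has lost exons still counts for its gene.

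Promoter windows were available for 6 of the 10 genes (*Kl*, *Aqp1*, *Kcnj13*, *Slc4a5*, *Mfrp* and *Calml4*) in a RefSeq table of build GRCm38.p6. Each was cut to the 250 bases before the transcription start and searched on both strands for TAATCC, the core that OTX homeodomain factors bind, and for GTTGCC, a half-site of RFX factors. OTX2 is a known regulator of choroid plexus development, and RFX factors act in ciliated cells. The OTX core was in 1 of the 6 windows (*Mfrp*) and in 6.25% of all 32851 windows. The RFX half-site was in 1 of the 6 (*Aqp1*) and in 10.4% of all windows. The windows of *Mfrp* (chr9:44101520-44101769, plus strand) and *Aqp1* (chr6:55336049-55336298, plus strand) are shown for these matches, in capitals, and that of *Kl* (chr5:150952357-150952606, plus strand) as one that held neither.
Mfrp: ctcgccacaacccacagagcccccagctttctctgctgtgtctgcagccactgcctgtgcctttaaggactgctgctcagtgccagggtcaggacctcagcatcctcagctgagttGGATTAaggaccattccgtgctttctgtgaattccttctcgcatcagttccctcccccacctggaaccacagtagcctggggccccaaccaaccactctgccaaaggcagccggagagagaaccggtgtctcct
Aqp1: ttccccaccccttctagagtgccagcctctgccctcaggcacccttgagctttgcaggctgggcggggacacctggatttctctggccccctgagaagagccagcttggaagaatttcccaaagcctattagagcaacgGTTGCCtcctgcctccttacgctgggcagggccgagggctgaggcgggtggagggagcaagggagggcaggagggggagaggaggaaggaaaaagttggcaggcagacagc
Kl: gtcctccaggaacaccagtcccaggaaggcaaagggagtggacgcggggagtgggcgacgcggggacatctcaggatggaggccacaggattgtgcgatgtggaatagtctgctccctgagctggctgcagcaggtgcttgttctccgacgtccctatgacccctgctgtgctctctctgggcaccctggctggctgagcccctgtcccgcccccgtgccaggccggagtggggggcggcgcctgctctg
A match is a description of letters only. The *Mfrp* window is also the window of *C1qtnf5*, a neighbor on the same strand that shares exons with *Mfrp*. GC content was 58.4% in the *Mfrp* window, 62% in that of *Aqp1* and 66.8% in that of *Kl*, against a median of 52.4% over all windows.

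Transthyretin, encoded by *Ttr* (Entrez Gene 22139), carries thyroid hormone and retinol-binding protein and is the most abundant secreted product of the epithelium. *Ttr* stood at 3957, 5039 and 3849 TPM in the *Brca2-WT;Trp53-mut* cerebella of GB517, GB519 and GB520. In the *Brca2-mut;Trp53-WT* cerebella it stood at 842 TPM in GB361, 9.60 in GB508 and 11.8 in GB512. GB361 thus stood apart from the other two mice of its group, below the high group and above them. Adjacent cerebellum held 15.4, 7.71 and 50.6 TPM in GB344, GB359 and GB370, and the tumors of the same mice held 3.44, 7.52 and 9.15 TPM. The *Brca2-WT;Trp53-mut* mean was 4282 ± 658 TPM (SD, n = 3), against 288 ± 480 in *Brca2-mut;Trp53-WT*, 24.6 ± 22.9 in adjacent tissue and 6.70 ± 2.94 in tumors. The ranges of the last 3 groups overlapped from each to the next, and the *Brca2-WT;Trp53-mut* range lay above all of them.

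*Enpp2* (Entrez Gene 18606, chromosome 15 from 54838901 to 54952789) encodes autotaxin, a secreted enzyme that makes lysophosphatidic acid, and oligodendrocytes make it as well as the choroid plexus. It stood at 861, 1118 and 879 TPM in the *Brca2-WT;Trp53-mut* cerebella and at 298, 96.9 and 80.7 TPM in GB361, GB508 and GB512. Adjacent tissue held 47.2, 72.4 and 72.2 TPM, and tumors 10.01, 15.8 and 13.7 TPM. *Enpp2* was the only one of the 10 genes whose 4 groups did not overlap anywhere in their order. The summed level of 8 oligodendrocyte genes moved along part of that order: 4511 to 4873 TPM in *Brca2-WT;Trp53-mut*, 3285 to 5121 in *Brca2-mut;Trp53-WT*, 1604 to 4533 in adjacent tissue and 94.2 to 293 in tumors. *Mbp*, the myelin basic protein gene with the highest level on that list, stood at 2632 to 2788 TPM in *Brca2-WT;Trp53-mut* and 50.9 to 184 TPM in tumors. The part of these cells in the level of *Enpp2* was not tested.

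*Kl* (Entrez Gene 16591, chromosome 5 from 150952607 to 150993817) encodes klotho, a co-receptor for FGF23 that the epithelium also sheds. It stood at 38.3, 50.3 and 39.9 TPM in the *Brca2-WT;Trp53-mut* cerebella, at 10.7 TPM in GB361, and between 2.11 and 4.15 TPM in the other 8 samples. The ranges of tumors and adjacent tissue overlapped, at 3.14 ± 0.780 and 3.51 ± 0.553 TPM (SD, n = 3 each). *Folr1* (Entrez Gene 14275, chromosome 7 from 101858331 to 101870788) encodes the folate receptor through which the plexus passes folate into the fluid. It stood at 30.0, 32.7 and 26.8 TPM in the high group and at 5.18 TPM in GB361, and did not pass 0.755 TPM in the other 8 samples. In the tumor of GB344 it was listed at 0.

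The water channel gene *Aqp1* (Entrez Gene 11826, chromosome 6 from 55336299 to 55348555) stood at 10.9, 11.8 and 8.66 TPM in the *Brca2-WT;Trp53-mut* cerebella. The tumors held 2.26, 1.72 and 2.57 TPM, above the 0.458, 0.600 and 0.397 TPM of the adjacent tissue of the same mice. GB361 held 1.94 TPM, within the range of the tumors, and GB508 and GB512 held 0.328 TPM each. *Clic6* (Entrez Gene 209195, chromosome 16 from 92498147 to 92541241), a chloride intracellular channel gene, followed the others least. Its *Brca2-WT;Trp53-mut* values of 31.6, 36.0 and 25.5 TPM were passed by 1 tumor, that of GB344, at 41.8 TPM. The tumors of GB359 and GB370 held 9.86 and 6.67 TPM, so the tumor mean of 19.4 carried an SD of 19.4.

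*Kcnj13* (Entrez Gene 100040591, chromosome 1 from 87384577 to 87394729), which encodes the inward rectifier potassium channel Kir7.1, stood at 14.3, 21.5 and 18.6 TPM in the *Brca2-WT;Trp53-mut* cerebella. GB361 held 4.58 TPM, GB508 and GB512 1.56 and 1.49 TPM, adjacent tissue 0.568 to 2.08 TPM and tumors 0.168 to 0.369 TPM. *Slc4a5* (Entrez Gene 232156, chromosome 6 from 83207580 to 83304945) encodes the sodium bicarbonate cotransporter NBCe2 of the apical membrane. It stood at 11.2, 12.2 and 9.60 TPM in the high group, at 2.44 TPM in GB361, and at 0.105 to 0.194 TPM in tumors, below every other sample. Both genes had their lowest group mean in the tumors, and *Aqp1* and *Clic6* did not.

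*Mfrp* (Entrez Gene 259172, chromosome 9 from 44101770 to 44109187), a membrane frizzled-related protein gene best known from the retinal pigment epithelium, stood at 5.44, 7.32 and 6.80 TPM in the *Brca2-WT;Trp53-mut* cerebella. It was listed at or close to 0 in all 3 *Brca2-mut;Trp53-WT* cerebella, GB361 among them, and in the adjacent tissue of GB359 and GB370. The adjacent tissue of GB344 held 1.46 TPM and the tumors up to 0.951 TPM. The estimate is uncertain, because *Mfrp* shares exons on its own strand with *C1qtnf5* and quantification can move reads between them. *C1qtnf5* stood at 24.0 to 26.6 TPM in the *Brca2-WT;Trp53-mut* cerebella and 21.3 to 22.9 TPM in the *Brca2-mut;Trp53-WT* cerebella. *Calml4* (Entrez Gene 75600, chromosome 9 from 62857472 to 62875921), a calmodulin-like gene, stood at 15.3, 17.4 and 12.3 TPM in the high group and between 0.990 and 3.51 TPM in the other 9 samples. GB361, at 2.46 TPM, was not set apart by *Calml4*. The exons of *Kcnj13* and *Enpp2* overlap genes on the opposite strand (*Gigyf2* and *Gm26684*), as do those of *Mfrp* (*Gm20444* and *Rnf26*).

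**Figure D1:**
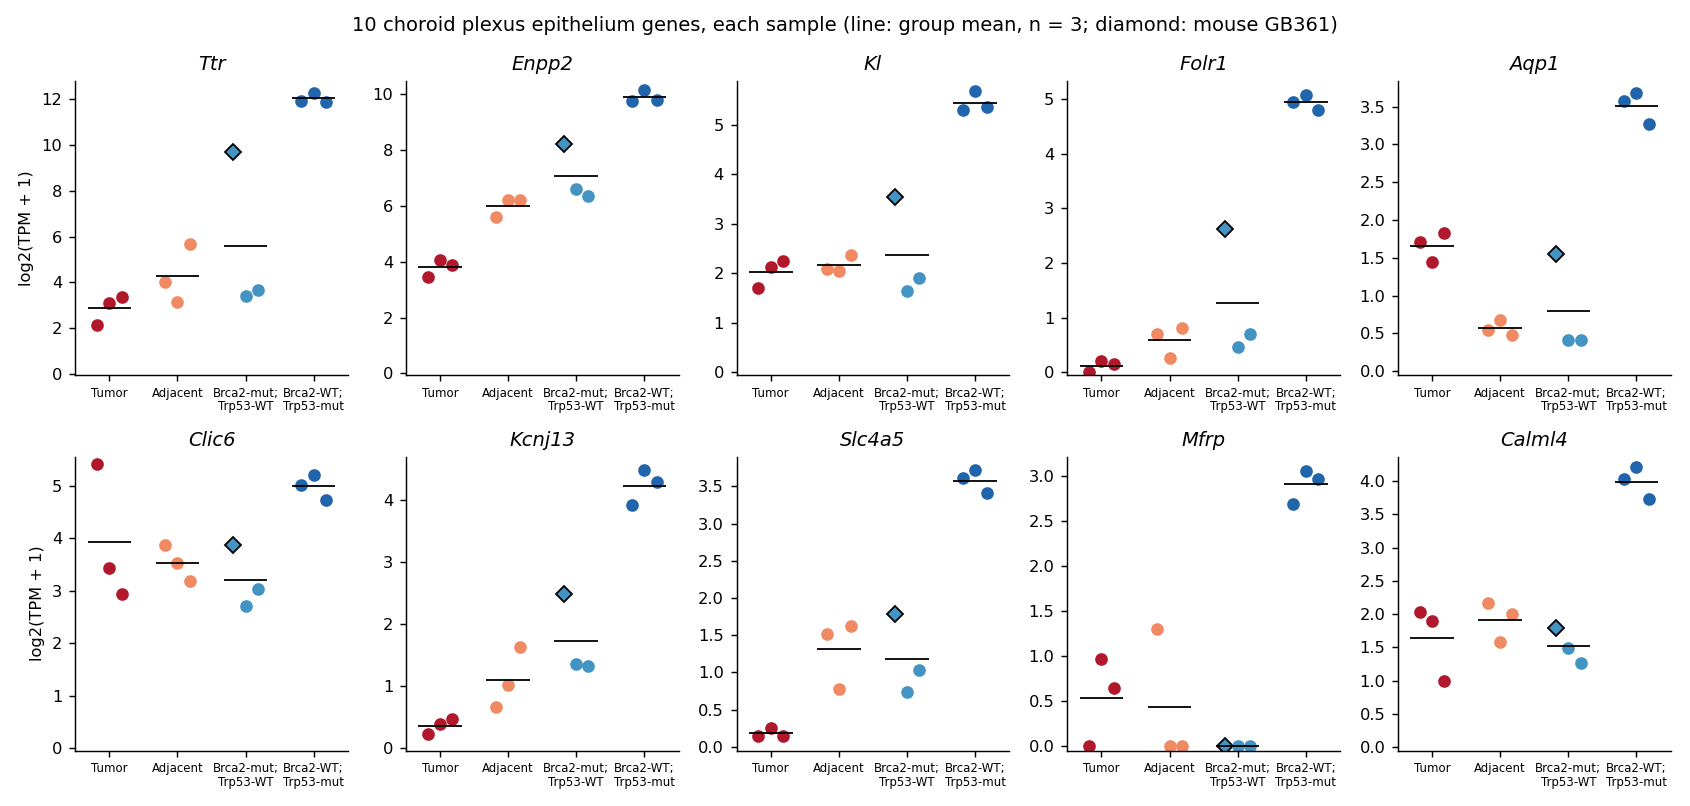
Levels of the 10 genes as log2(TPM + 1) in each of the 12 samples, 1 panel per gene, with the 4 groups along the horizontal axis. Lines are group means (n = 3) and the diamond is mouse GB361. The 3 *Brca2-WT;Trp53-mut* cerebella lie above every other sample in 9 panels, and in the *Clic6* panel the tumor of GB344 lies higher.

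For 9 of the 10 genes all 3 *Brca2-WT;Trp53-mut* cerebella lay above the other 9 samples, *Clic6* being the exception. Over the 16498 genes with at least 1 TPM in 3 of 12 samples, 3.59% did so. Since the genes were chosen with this pattern known, nothing is read from their count. Within the high group all 10 genes were highest in GB519, with coefficients of variation from 9.84% for *Folr1* to 20.2% for *Kcnj13* (n = 3). For *Ttr* the coefficient was 15.4% there, and 167% in the *Brca2-mut;Trp53-WT* group.

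The sum over the 10 genes was 4975, 6346 and 4877 TPM in GB517, GB519 and GB520, which is 0.488% to 0.635% of each library. It was 1181 TPM in GB361, 119 and 107 TPM in GB508 and GB512, 87.8 to 143 TPM in adjacent tissue and 38.0 to 63.1 TPM in tumors. The make-up of the sum differed as well as its size. *Ttr* took 79.5%, 79.4% and 78.9% of it in the 3 *Brca2-WT;Trp53-mut* cerebella and 71.3% in GB361. In the other 8 samples *Ttr* took between 5.44% and 35.3%. *Enpp2* was then the larger part in the adjacent tissue and in GB508 and GB512, at 50.3% to 81.5%. The ratio of *Enpp2* to *Ttr* was 0.218, 0.222 and 0.228 in the high group, 0.354 in GB361 and 6.86 to 10.1 in the other 2 mice of that genotype. For 1000 TPM of *Ttr* the high group held 9.69, 9.98 and 10.4 TPM of *Kl*, and GB361 held 12.6 TPM.

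**Figure D2:**
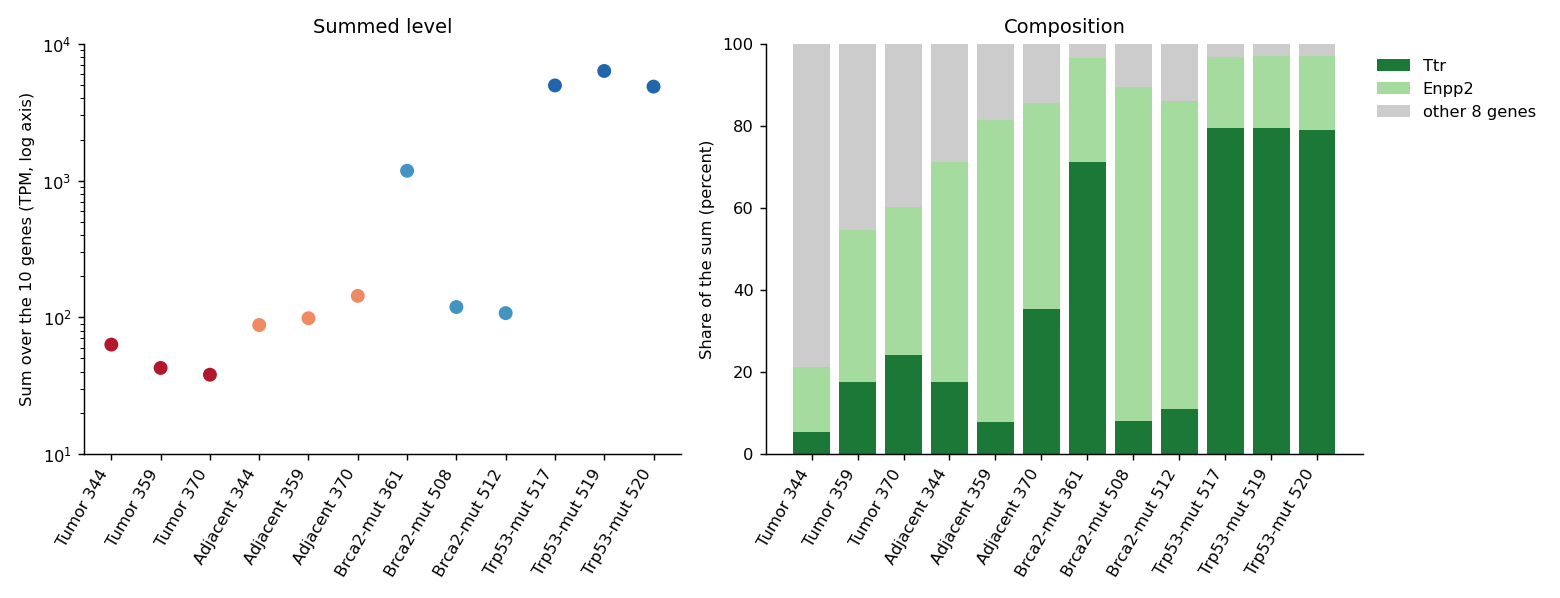
Left, the sum of the 10 genes in TPM on a log axis for each sample, and right, the percent of that sum from *Ttr*, *Enpp2* and the other 8 genes. Trp53-mut stands for *Brca2-WT;Trp53-mut* and Brca2-mut for *Brca2-mut;Trp53-WT*. GB361 lies between the high group and the remaining samples in sum and resembles the high group in the *Ttr* share.

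GB361 was described gene by gene on a scale that runs from 0 at the mean of GB508 and GB512 to 100 at the *Brca2-WT;Trp53-mut* mean. This scale was chosen after the values were seen. Among the 10 genes the position of GB361 had a median of 17.2% and ran from -0.00202% (*Mfrp*) and 6.34% (*Calml4*) to 24.2% (*Enpp2*) and 29.3% (*Clic6*). *Ttr* stood at 19.5%, *Kl* at 20.3%, *Kcnj13* at 18.4%, *Folr1* at 16.0%, *Aqp1* at 15.9% and *Slc4a5* at 15.6%. *Ttr* and *Slc4a5*, close together on this scale, had *Brca2-WT;Trp53-mut* means of 4282 and 10.98 TPM. Of 44 other choroid plexus genes, 23 had a *Brca2-WT;Trp53-mut* mean at least 3 times that of GB508 and GB512, and their median position was 19.5%, with quartiles of 14.9% and 23.8%. GB361 lay above both GB508 and GB512 for 9 of the 10 genes, for 33 of the 44 others, and for 48.2% of 16488 genes outside the 10.

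**Figure D3:**
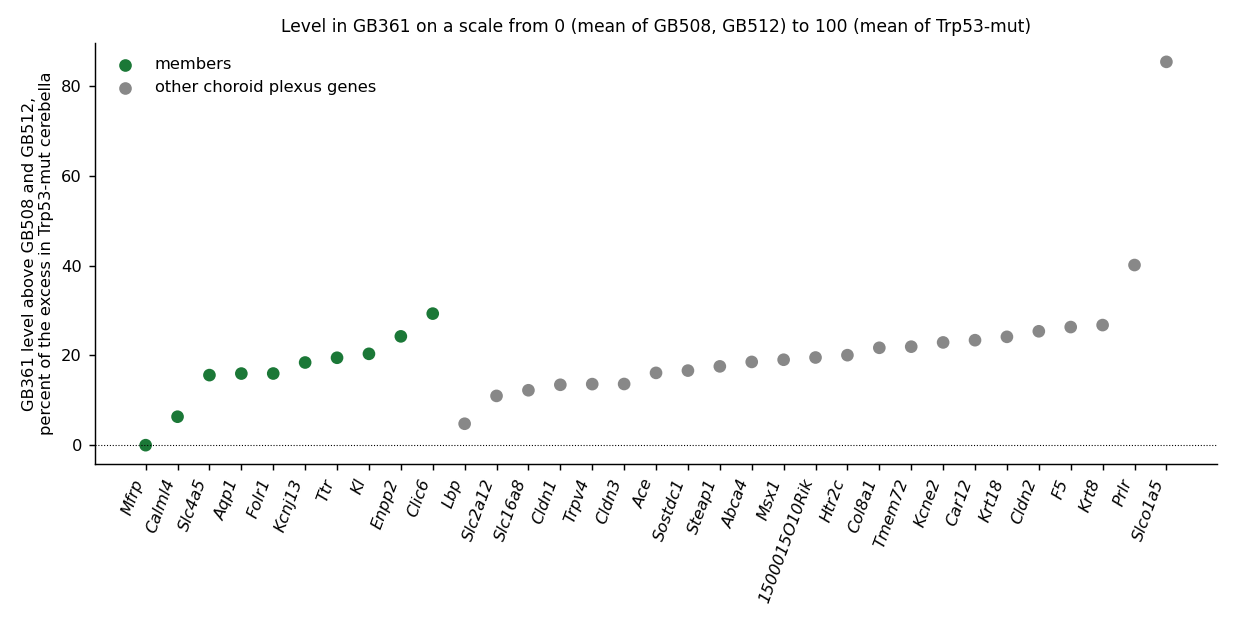
Position of GB361 for each gene, as percent of the distance from the mean of GB508 and GB512 (0) to the mean of the 3 *Brca2-WT;Trp53-mut* cerebella (100), for the 10 genes and the 23 other choroid plexus genes with a ratio of at least 3. Most points lie between 10 and 30 percent, with *Mfrp* at about 0 and *Slco1a5*, a gene of 0.0554 to 1.03 TPM over the samples, at 85.4 percent.

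The other genes of the tissue were read from a list of 44 (transporters, junction, secreted and transcription factor genes), tested with limma over all genes. Genes that reached 1 TPM in fewer than 3 samples of a comparison were not tested, which left 43 of the 44 in comparisons with *Brca2-WT;Trp53-mut*, 32 in the others with *Brca2-mut;Trp53-WT* and 31 in tumor against adjacent tissue. With 3 samples per group, a gene could pass this filter through the *Brca2-WT;Trp53-mut* group alone. A gene that did so and stayed under 1 TPM in the other group could only come out lower there. Counts called lower against *Brca2-WT;Trp53-mut* are thus partly set by the filter. Genes were called at an adjusted p under 0.01 where the fitted difference in log2(TPM + 1) was also 1 or more in size. In *Brca2-mut;Trp53-WT* against *Brca2-WT;Trp53-mut* cerebella, 1 of 43 tested was called lower and 0 higher, where 0.0449% of 15575 genes were called lower and 0.0128% higher. The 1 was *Lbp*, which encodes lipopolysaccharide-binding protein and fell by 1.43 (SE 0.124, adjusted p = 0.00898, limma). *Lbp* stood at 4.74, 4.30 and 4.27 TPM in GB361, GB508 and GB512 and at 14.5, 14.9 and 11.7 TPM in GB517, GB519 and GB520. All 44 had a lower mean in *Brca2-mut;Trp53-WT*, with a median difference of -1.12 against -0.07 over all genes at 1 TPM or more in 3 samples. The median over all genes is itself negative, so a lower mean was also their more frequent direction. At an unadjusted p under 0.05, 40 of 43 passed, and 20.1% of all 15575 genes did. The list, too, was drawn up with earlier results of these samples known. Its genes belong to the same tissue and many move together, so they are not independent of each other. Counts over the list, here and below, are therefore given as a description beside the share of all genes. Without GB361, 11 of the list were called lower, among 27 genes in all, against 1 among 7 with it. Without any 1 of the other 5 mice 0 were, among 2 to 4 genes in all.

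The 10 genes themselves differed between these controls by a median of -2.77, from -6.45 for *Ttr* to -1.79 for *Clic6*. *Ttr* ranked 1 and *Folr1* 2 among 15575 genes by the size of a lower value. *Brca2-WT;Trp53-mut* and *Brca2-mut;Trp53-WT* mice differ at both *Brca2* and *Trp53*, and their labels do not say which mice carry the Cre transgene. Neither locus, nor the transgene, nor the samples' dissection can be told apart as what goes with the difference. The sum of 12 ependymal cilia genes was 81.3 to 90.3 TPM in *Brca2-mut;Trp53-WT* and 87.4 to 105 TPM in *Brca2-WT;Trp53-mut*. That of 12 meningeal fibroblast genes was 123 to 142 and 119 to 142 TPM, and that of 14 brainstem genes 3.30 to 10.8 and 3.45 to 4.70 TPM. The 10.8 TPM was that of GB512, where 1 gene, *Hoxa5*, held 7.45 TPM. *Hoxa5* did not pass 0.392 TPM in any other sample. No gene of those 3 lists was called between these controls (limma, adjusted p), and 7 of their 24 tested genes passed an unadjusted p under 0.05, 5 of them ependymal, beside the 20.1% of all genes. Only 1 brainstem gene was high enough to be tested.

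For the lists of other cells, the 2 genes with the highest mean level were read one by one. In *Brca2-mut;Trp53-WT* and *Brca2-WT;Trp53-mut* cerebella respectively, the ependymal list gene *Rarres2* stood at 27.2 to 33.5 and 25.5 to 31.5 TPM, and *Mia* at 5.80 to 9.51 and 16.3 to 18.3 TPM. The meningeal genes *Dcn* and *Islr* stood at 26.6 to 27.7 and 13.3 to 18.2 TPM in the first genotype and 23.2 to 26.2 and 12.2 to 18.8 TPM in the second. The endothelial genes *Cldn5* and *Flt1* stood at 42.3 to 50.5 and 25.6 to 27.3 TPM, and at 36.2 to 45.3 and 24.6 to 29.8 TPM. The ranges of *Mia* and of *Dcn* lay apart between these genotypes, and neither gene was called. The hemoglobin genes *Hba-a2* and *Hbb-bs* stood at 812 to 1089 and 458 to 554 TPM, and at 861 to 1346 and 509 to 649 TPM. The Purkinje cell gene *Pcp2* and the interneuron and Purkinje cell gene *Pvalb* stood in *Brca2-mut;Trp53-WT* at 2585 to 3020 and 1690 to 2011 TPM against 1721 to 2025 and 1279 to 1483 TPM. Their ranges lay apart as well. None of the 5 cerebellar neuron genes was called, and 4 passed an unadjusted p under 0.05 (limma). The progenitor genes *Gli1* and *Atoh1* reached 21.4 and 0.212 TPM at most in these controls, 67.2 and 59.4 TPM in adjacent tissue, and 252 and 319 TPM in tumors. *Gli1* also lay apart between the controls, at 17.6 to 21.4 TPM in *Brca2-mut;Trp53-WT* and 15.2 to 17.4 TPM in *Brca2-WT;Trp53-mut*, and was not called. The other 2 genes of that list, *Mki67* and *Top2a*, stood at 5.63 and 8.42 TPM in GB512. They did not pass 0.343 and 0.686 TPM in the remaining controls. The brainstem genes *Isl1* and *Slc6a2* did not pass 0.0392 and 0.614 TPM in the controls, and *Isl1* reached 38.4 TPM in the tumor of GB370.

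Between adjacent cerebellum and *Brca2-WT;Trp53-mut* cerebellum, 9 of 43 tested were called lower and 0 higher, where 0.139% of 15826 genes were called lower and 0.0442% higher. The 9 were *Kcne2*, *Sostdc1*, *1500015O10Rik*, *F5*, *Htr2c*, *Steap1*, *Tmem72*, *Krt18* and *Msx1*. *Sostdc1*, a secreted BMP and WNT antagonist, fell by 4.06 (SE 0.206, adjusted p = 0.000629, limma), from 18.3, 24.98 and 19.5 TPM to 0.177, 0.143 and 0.664 TPM. *Kcne2*, a potassium channel subunit of the apical membrane, fell by 3.95 (SE 0.163, adjusted p = 0.000414, limma). *Htr2c*, the serotonin receptor first found in this tissue, fell by 2.75 (SE 0.235, adjusted p = 0.00643, limma). They were 9 of the 22 genes called lower in all. *Sostdc1*, *Kcne2*, *F5*, *Tmem72*, *Krt18* and *Steap1* were under 1 TPM in every adjacent sample. They entered the test through the high group alone and could only come out lower. The count moved with single libraries. It was 22, among 70 genes in all, without the adjacent tissue of GB370, and 3 or 4, among 6 to 10 in all, without any 1 of the other 5. In the 10 genes the median difference was -3.04, with *Ttr* at -7.77 and *Clic6* at -1.46.

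Between adjacent tissue and *Brca2-mut;Trp53-WT* cerebellum, 0 of 32 tested genes of the list were called in either direction, where 0.0127% of 15727 genes were called higher and 0.0127% lower (limma). At an unadjusted p under 0.05, 6 of the 32 passed (18.8%), and 29.9% of all genes did. The median difference of the 10 genes was -0.21, and without GB361 it was 0.41. The sign of that median was thus set by 1 mouse.

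In tumors against *Brca2-WT;Trp53-mut* cerebella, 25 of 43 tested (58.1%) were called lower and 1 higher, where 22.3% of 15970 genes were called lower and 13.5% higher. Against *Brca2-mut;Trp53-WT* cerebella, 7 of 32 (21.9%) were called lower and 4 (12.5%) higher, where 20.5% of 15767 genes were called lower and 14.3% higher. Against adjacent tissue, 4 of 31 (12.9%) were called lower and 1 (3.23%) higher, where 18% of 15845 genes were called lower and 4.76% higher. Against *Brca2-mut;Trp53-WT*, 12 were called lower without the tumor of GB344, among 3149 genes in all. Against adjacent tissue, the count called higher was 0 without the tumor of GB370 or the adjacent tissue of GB359, among 189 and 210 genes in all. It was 3 without the adjacent tissue of GB344, among 913. The genes called lower against adjacent tissue were *Slc4a10*, *Trpm3*, *Slc13a4* and *Ace*, and the gene called higher was *Rdh5*, a retinol dehydrogenase gene. *Slc4a10*, a bicarbonate transporter that neurons also make, fell by 3.79 (SE 0.413, adjusted p = 0.000581, limma), from 76.1, 83.5 and 102 TPM to 2.15, 7.86 and 8.05 TPM. *Trpm3*, a cation channel gene that cerebellar neurons also express, fell by 2.48 (SE 0.249, adjusted p = 0.000454, limma). Over 5 cerebellar neuron genes the summed level was 4135 to 5064 TPM in adjacent tissue and 662 to 960 TPM in tumors, and the part of neurons in these 2 differences was not tested. With the mouse as a replicate block, 6 of the list were called lower in tumor against adjacent tissue, among 2841 genes in all. The median of the 10 genes was then -0.38, as without the block.

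The 10 genes had median differences of -3.40 in tumors against *Brca2-WT;Trp53-mut*, -0.67 against *Brca2-mut;Trp53-WT* and -0.38 against adjacent tissue. These comparisons share control samples or tumors, so their values stand side by side and are not independent. *Enpp2* and *Ttr* had the lowest values against adjacent tissue, at -2.19 and -1.42, and *Aqp1* the highest at 1.09. The tumor of GB344, which held the highest *Clic6*, also held 212 TPM of *Igf2*, a growth factor gene, and 49.5 TPM of *Car14*, a carbonic anhydrase gene, against 12.3 and 29.8 TPM of *Igf2* and 4.91 and 3.17 TPM of *Car14* in the other 2 tumors. The same tumor held 0.323 TPM of *Otx2*, against 28.0 and 34.3 TPM in the others. *Otx2* did not follow the 10 genes elsewhere either: it stood at 22.3 to 34.7 TPM in adjacent tissue and 17.3 to 19.7 TPM in the *Brca2-WT;Trp53-mut* cerebella, where the 10 genes were highest.

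**Figure D4:**
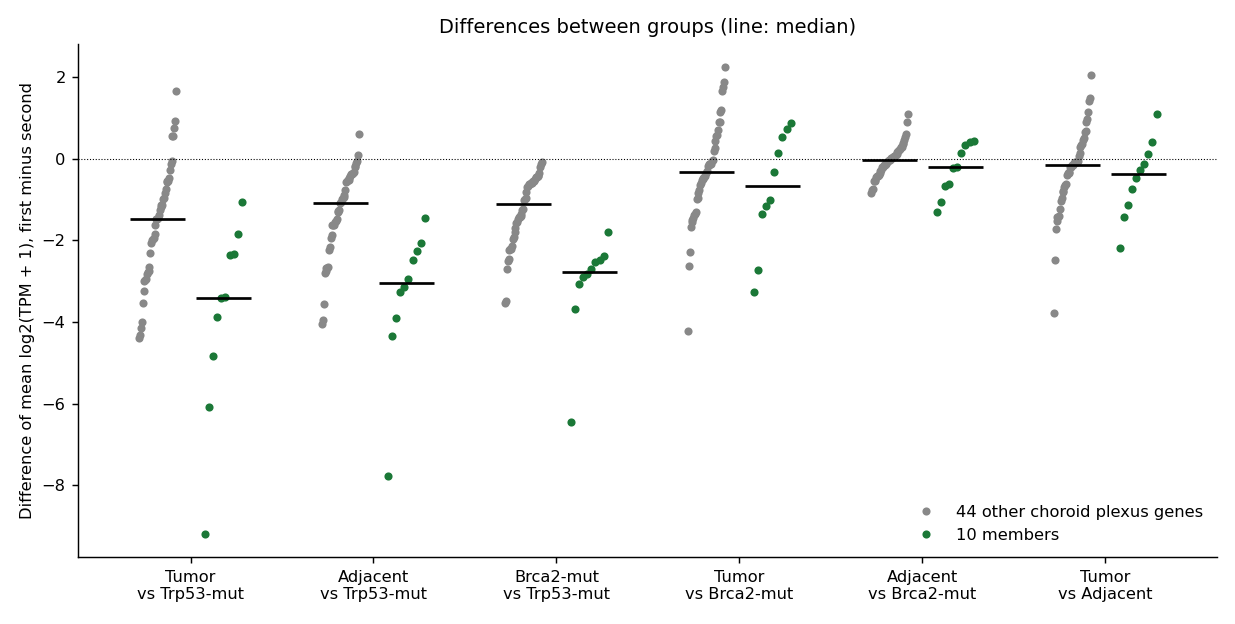
Difference between group means of log2(TPM + 1), first group minus second, for each of the 10 members and the 44 other choroid plexus genes in 6 comparisons. Lines are medians over all genes of the list. Trp53-mut stands for *Brca2-WT;Trp53-mut* and Brca2-mut for *Brca2-mut;Trp53-WT*. The 10 members have medians of -3.40, -3.04 and -2.77 in the 3 comparisons with *Brca2-WT;Trp53-mut* and between -0.67 and -0.21 in the other 3.

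Of the 12 genes of the list with the highest mean level, 5 had all 3 *Brca2-WT;Trp53-mut* cerebella above the other 9 samples: *1500015O10Rik*, *Cab39l*, *Slc4a2*, *Slc12a2* and *Trpm3*. Over the whole list, 25 of the 43 genes with at least 1 TPM in 3 of 12 samples did so. Of all 16498 genes at that level, 3.59% did. A gene could reach that level through the high group alone, so the 25 are a description. *Igfbp2*, an insulin-like growth factor binding protein gene, had the highest mean and stood at 135 to 162 TPM in *Brca2-WT;Trp53-mut*, 40.8 to 91.2 TPM in *Brca2-mut;Trp53-WT*, 42.8 to 102 TPM in adjacent tissue and 57.4 to 159 TPM in tumors. *Col9a3*, a collagen gene, was highest in tumors at 122 to 194 TPM, and was the 1 gene called higher there against *Brca2-WT;Trp53-mut*. *Slc12a2*, which encodes the cotransporter NKCC1, stood at 71.0 to 80.2 TPM in *Brca2-WT;Trp53-mut* and 52.5 to 62.9 TPM in *Brca2-mut;Trp53-WT*. *Slc29a4*, *Slc4a2* and *Cab39l* stood at 41.5 to 51.1, 42.3 to 48.3 and 37.4 to 48.0 TPM in *Brca2-WT;Trp53-mut*, against 28.0 to 41.3, 31.0 to 38.4 and 24.2 to 29.4 TPM in *Brca2-mut;Trp53-WT*. *1500015O10Rik*, the gene of the secreted peptide augurin, had the highest mean of the high group relative to its highest other sample, at 3.61 times, against 1.46 times for *Cab39l*. It stood at 84.8, 107 and 79.8 TPM in the *Brca2-WT;Trp53-mut* cerebella, at 25.1 TPM in GB361, and at 1.62 to 10.7 TPM in the other 8 samples.

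The genes whose levels were most like the mean of the 10 over the 12 samples were ranked by Pearson correlation of log2(TPM + 1) among 16488 other genes. The correlation is a description: the samples of a group share their genotype, and the ranking rests mainly on the 3 high samples and GB361. The first 10 were *F5* (r = 0.996), *Sostdc1* (0.994), *Tmem72* (0.991), *Kcne2* (0.990), *Krt18* (0.989), *Prr32* (0.985), *Gm853* (0.976), *Wdr86* (0.975), *Slc2a12* (0.972) and *Defb11* (0.967). Of these, 6 were on the list of 44, and *Prr32*, *Gm853*, *Wdr86* and *Defb11* were on none. *F5*, which encodes coagulation factor V, stood at 10.2, 9.97 and 9.42 TPM in the high group, 2.84 TPM in GB361 and 0.213 to 0.843 TPM in the other 8 samples. *Defb11*, a beta-defensin gene, stood at 5.51, 3.68 and 7.70 TPM in the high group and 0.740 TPM in GB361, and was listed at 0 in the other 8 samples. With the group means removed, r was 0.977 for *F5* and for *Sostdc1* and 0.565 for *Defb11*. These values too rest mainly on GB361. Its mean of the 10 genes in log2(TPM + 1) was 3.56, against 1.88 in GB508 and 1.97 in GB512. Among the 10 genes, each against the mean of the other 9, r ran from 0.629 for *Clic6* to 0.997 for *Folr1*, and without the tumors *Clic6* reached 0.933.

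**Figure D5:**
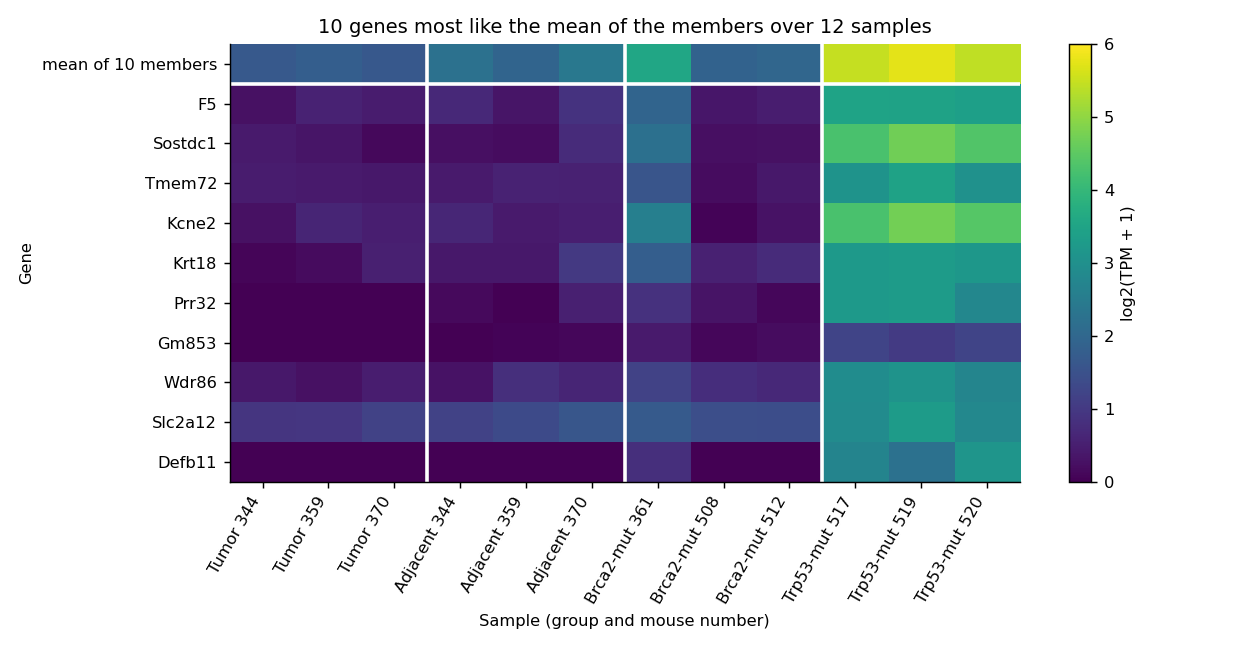
Levels as log2(TPM + 1), by color, of the mean of the 10 members (top row) and of the 10 genes most like it in each of the 12 samples, with white lines between groups. Trp53-mut stands for *Brca2-WT;Trp53-mut* and Brca2-mut for *Brca2-mut;Trp53-WT*. Every row is brightest in the 3 *Brca2-WT;Trp53-mut* samples, with GB361 next.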

How the data were processed

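RNA from 12 mouse samples was measured by poly(A)-selected RNA-seq. Per the labels and the methods of the study, the authors quantified transcripts with Salmon 0.8.1 on mm10 gene models, and the deposited table holds TPM per gene with no counts. Samples were grouped by their labels, with 3 mice per group, and all value columns matched a sample. The 10 genes, the lists and the tests were chosen with earlier results of these data known. Of 24091 Entrez IDs, 24045 matched the RefSeq table.

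From these values, log2(TPM + 1) was tested with limma 3.58.1 (eBayes with trend) in R 4.3.3, in each pair of groups, for genes with at least 1 TPM in 3 samples of the pair. P-values were adjusted by Benjamini-Hochberg over all genes tested, and genes were called at adjusted p under 0.01 with a difference of 1 or more in log2. Fold changes on this scale understate the change of low genes. The procedure was tested on simulated data for *Brca2-mut;Trp53-WT* against *Brca2-WT;Trp53-mut* (15575 genes), where 98% of 200 genes changed by a log2 of 2 were recovered with 2 false calls. The changed genes were drawn only from those with a higher mean level, and the noise was independent between genes. The 98% therefore does not cover lower genes, *F5* and *Kcne2* among them, or a mouse that shifts many genes together. Tumor and adjacent samples come from the same mice, and deviations from group means correlated by 0.228, 0.148 and 0.148 within mice and by at most 0.0149 between mice, so the mouse as a block was an alternative.

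Named genes were every member, the 12 listed genes with the highest mean TPM, those called between the control groups, the 10 most like the members, and the 2 highest genes of each other list, of which 1 is not reported here. *Sostdc1*, *Kcne2*, *Htr2c*, *C1qtnf5*, *Ace*, *Slc13a4*, *Slco1a5*, *Mki67*, *Top2a*, *Hoxa5* and the others called against adjacent tissue, and the genes of the closing section outside the lists, were named after their values were seen.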

Additional observations from a re-analysis of the deposited data

How the results depend on the processing

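Alternatives were a pseudocount of 0.1, no expression filter, a filter of 5 TPM, median-of-ratios scaling, eBayes without trend, all 4 groups in 1 fit, an adjusted p under 0.05 with no fold minimum, and each sample left out. With a pseudocount of 0.1 the median difference of the 10 genes was -4.79 (tumor against *Brca2-WT;Trp53-mut*), -1.43 (tumor against *Brca2-mut;Trp53-WT*), -0.98 (tumor against adjacent) and -3.92 (adjacent against *Brca2-WT;Trp53-mut*). In the last, 5 of the 44 other genes were called lower, among 15 genes in all. At 5 TPM only 3 of the 10 passed in the tumor comparisons with *Brca2-mut;Trp53-WT* (-2.74) and adjacent tissue (-1.42) and in adjacent against *Brca2-mut;Trp53-WT* (-1.07). In adjacent against *Brca2-WT;Trp53-mut* that filter gave 5 of 44 called lower, among 11 genes in all. Between the control groups the 1 call was lost (0) without a filter, at 5 TPM, with median-of-ratios scaling and without trend. With all groups in 1 fit, 6 were called lower there, among 19 genes in all. The same fit gave 14 lower for adjacent against *Brca2-WT;Trp53-mut*, among 36. It gave 2 higher for tumor against adjacent, among 1278, where median-of-ratios scaling gave 3, among 1439. At an adjusted p under 0.05, 21 were lower between the control groups, among 65 genes in all, and 21 in adjacent against *Brca2-WT;Trp53-mut*, among 90. For tumor against *Brca2-WT;Trp53-mut* that threshold gave 5 higher, among 4397 genes in all. Against *Brca2-mut;Trp53-WT* it gave 13 lower, among 5294. Against adjacent tissue it gave 4 higher and 8 lower, among 2870 and 5110. For adjacent against *Brca2-mut;Trp53-WT* it gave 1 higher, among 345. The causes were not tested.

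Leaving out 1 sample at a time, counts of the 44 called lower ran from 0 to 11 between the control groups (11 without GB361), 3 to 22 in adjacent against *Brca2-WT;Trp53-mut* (22 without adjacent GB370), and 6 to 12 in tumor against *Brca2-mut;Trp53-WT* (12 without the tumor of GB344). Over all genes, those called lower ran from 2 to 27, 6 to 70 and 2850 to 3311. Counts called higher ran from 1 to 2, 0 to 3 and 0 to 1 for tumor against *Brca2-WT;Trp53-mut*, tumor against adjacent, and adjacent against *Brca2-mut;Trp53-WT*. Over all genes, those called higher ran from 1883 to 2219, 189 to 913 and 0 to 278. The mouse as a replicate block changed no direction. Of the 10 genes most like the members, 0 were shared with a Spearman ranking, 6 without tumors and 4 with group means subtracted. The median of the 10 genes in adjacent against *Brca2-mut;Trp53-WT*, which has no test, changed sign without GB361 (0.41 against -0.21). The move was smaller than the spread between replicates, 0.689 there. GB361 itself is in that spread, so it does not show that the move is small. In comparisons without *Brca2-mut;Trp53-WT* the spread was 0.133 to 0.212. Of 235 recomputed values, 189 moved less than the spread of their own comparison or, for counts, stayed within 1.5 times.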

Other observations

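Outside the lists, 3 genes chosen after their values were seen separated the libraries in ways that cut across or matched the pattern of the choroid plexus genes. *Prm1*, a protamine gene of sperm chromatin, stood at 132 to 324 TPM in tumors and 149 to 286 TPM in adjacent tissue. It stood at 201 to 302 TPM in the *Brca2-mut;Trp53-WT* cerebella and 1.64 to 2.30 TPM in the *Brca2-WT;Trp53-mut* cerebella. GB361 thus went with GB508 and GB512 and with its label. Every library with high *Prm1* came from a *Brca2-mut* mouse, in which Cre made the deletion. Whether these reads come from the *Prm1* gene of the mouse itself was not tested.

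*Scgb1a1*, a secretoglobin gene of the airway, and *Rprl2*, a small RNA gene, split the libraries by mouse number instead. *Scgb1a1* stood at 42.5 to 89.1 TPM in the 7 libraries of mice GB344 to GB370, GB361 included at 52.0 TPM, and at 0 to 1.05 TPM in the 5 libraries of mice GB508 to GB520. *Rprl2* stood at 23.7 to 71.3 TPM in the 7 and at 0 to 1.02 TPM in the 5. No label names a batch along this split. The methods of the study name Genewiz and a Rockefeller University core for the sequencing, but not which samples went to which. GB361 was the only control among the 7, so its distance from GB508 and GB512 cannot be told apart from this split. Among the 5 libraries, *Ttr* was 9.60 and 11.8 TPM in GB508 and GB512 against 3849 to 5039 TPM in the *Brca2-WT;Trp53-mut* cerebella. Among the 7, *Ttr* was 842 TPM in GB361 and at most 50.6 TPM in the tumors and adjacent tissue.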
